A study of Mus musculus with 8 samples.

Results

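The genes described here are the enzymes of the pentose phosphate pathway and the cytosolic isocitrate dehydrogenase Idh1. They were taken by symbol from the table of 25239 genes, and all 9 were present: G6pdx, H6pd, Pgls, Pgd, Rpia, Rpe, Tkt, Taldo1 and Idh1. RNA came from livers of male mice, of an age the labels do not give, in 2 groups of 4 libraries. Both groups carry loxP-flanked (fl/fl) Zfp36l1 alleles, and only the group called knockout is Alb-Cre+, that is, it expresses a Cre recombinase under the hepatocyte-active albumin promoter. The controls are fl/fl with no Cre named (their genotype label reads WT), so the Cre transgene and the deletion cannot be told apart. The labels number the libraries and do not state that each is a separate mouse, so the p-values reflect library-to-library spread, which may be technical.

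The product of the targeted gene, ZFP36L1, attaches to AU-rich stretches of mRNAs and speeds their decay. The oxidative branch of the pentose phosphate pathway takes glucose 6-phosphate to ribulose 5-phosphate and reduces NADP to NADPH at the dehydrogenase steps. The non-oxidative branch interconverts pentose phosphates with the hexose and triose phosphates of glycolysis, so that carbon can leave the pathway or enter it without the dehydrogenases. Liver uses the NADPH for fatty acid and cholesterol synthesis and to keep glutathione and thioredoxin reduced. Idh1 and the malic enzyme Me1 are the other main cytosolic sources of NADPH.

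Total counts ran from 104842873 to 140582588 per library. Levels are in CPM, counts scaled to a common library size with the TMM correction for composition, and are given as mean ± SD with n = 4 per group. Each fold change is the log2 of knockout against control, with a standard error (SE). The test was the quasi-likelihood test of edgeR, with Benjamini-Hochberg adjustment over all 14861 genes tested and a threshold of 0.05. Zfp36l1 had 263, 237, 324 and 212 CPM in controls 1 to 4, against 76.9, 57.9, 67.2 and 58.3 CPM in knockouts 1 to 4, which is 25.1% of the control mean (log2 fold change −1.99, adjusted p = 0.000309). The 8 hepatocyte markers summed to 71556 to 77105 CPM in control and 83362 to 93940 CPM in knockout libraries, with 0 of 8 called (2 higher by DESeq2 and at an unadjusted p under 0.05). The higher sum is mostly Alb, which had 57566 ± 3580 and 71672 ± 4025 CPM (adjusted p = 0.0856), while 5 of the 8 markers had a log2 fold change below 0 and the median was −0.07. All members passed the count filter, the lowest count of any member in any library being 489.

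Of the 9 members, G6pdx rose in the knockout livers and no other member passed the test in either direction. Over all tested genes, 5.39% passed the threshold, 3.51% as higher and 1.88% as lower in the knockout, so a single call among 9 members does not set the list apart. At an unadjusted p under 0.05, 4 members were higher (G6pdx, Pgd, Rpia and Tkt) and 0 were lower, where 10.8% of all tested genes were higher and 10.6% lower. DESeq2 called 3 members higher (G6pdx, Pgd and Rpia) and 0 lower, where it called 11.7% of all tested genes, 6.82% as higher. With limma-voom G6pdx was the 1 member called, as higher, among 9.65% of all tested genes (5.59% higher). The median log2 fold change of the members was 0.12, against −0.01 over all tested genes, and 7 of the 9 were above 0. Under total counts alone the median of all genes shifted by −0.11. That scaling called 11.6% of them, with the knockout higher in 392 genes (2.64% of those tested) and lower in 1338, in place of 521 and 280. Under it G6pdx was still the 1 member called, and 5 members were above 0, with H6pd (−0.11) and Rpe (−0.095) turning negative.

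**Figure D1:**
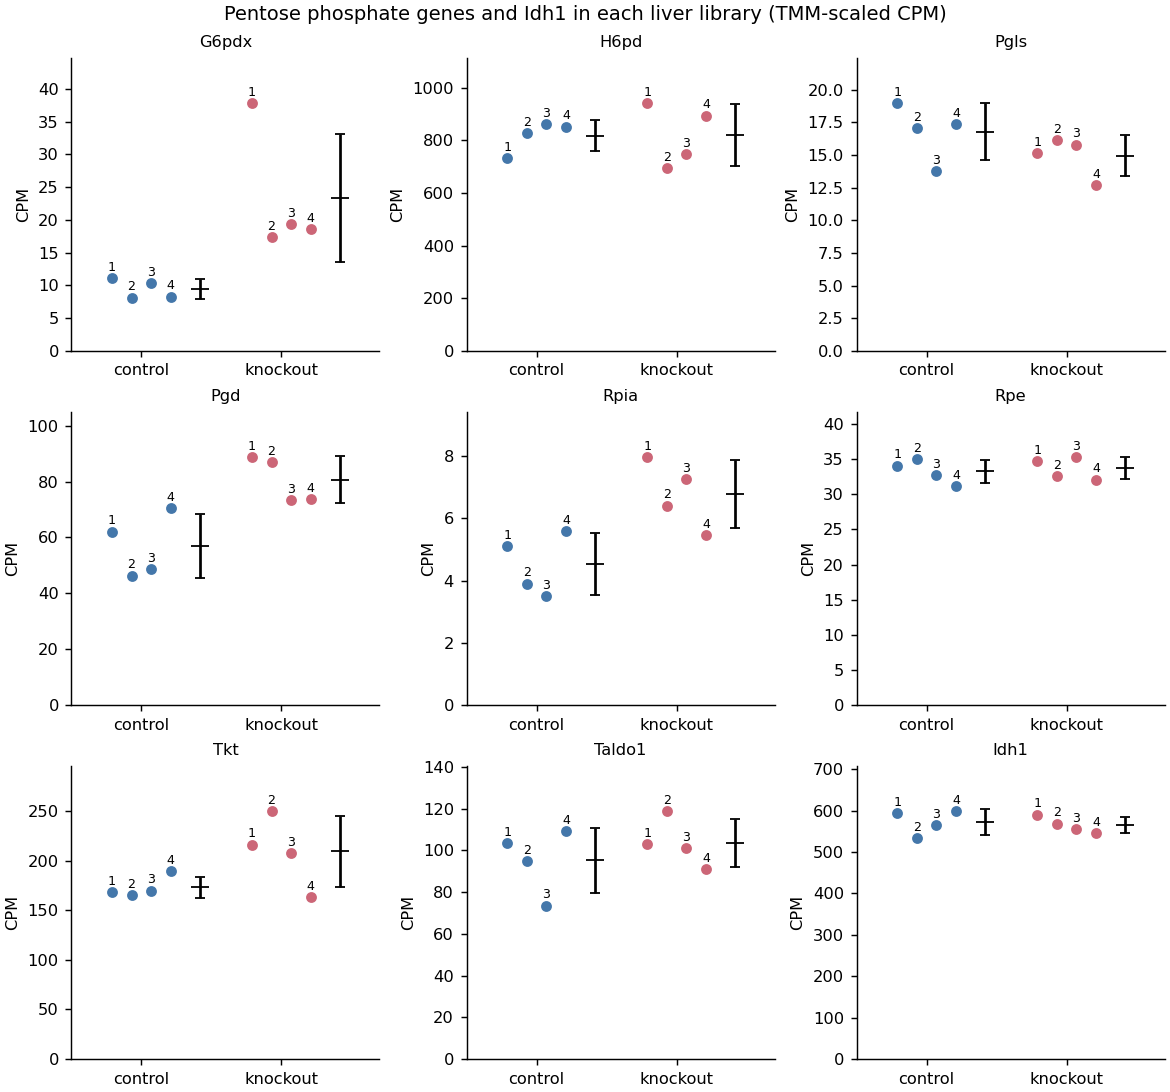
CPM of each of the 9 members (vertical axis, starting at 0) in the 4 control and 4 knockout libraries, 1 numbered point per library, with the mean and SD of each group at its right. G6pdx and Pgd are the 2 members whose groups do not overlap, as for 15.1% of all tested genes (7.17% with the knockout higher), and the G6pdx point of knockout library 1, at 37.9 CPM, stands above the other knockout libraries.

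G6pdx (ENSMUSG00000031400.10, chromosome X, 74409483 to 74429194, minus strand, mm10) encodes glucose-6-phosphate dehydrogenase, the first and rate-limiting enzyme of the oxidative branch. Its level was 11.1, 8.13, 10.4 and 8.29 CPM in control libraries 1 to 4. It was 37.9, 17.4, 19.3 and 18.6 CPM in knockout libraries 1 to 4. Every knockout library was above every control library, and knockout library 1 stood far above the other knockout libraries. The group means were 9.47 ± 1.49 and 23.3 ± 9.76 CPM, a log2 fold change of 1.30 (SE 0.26, adjusted p = 0.0271). Because the groups did not overlap, the knockout library was necessarily higher in all 4 same-numbered pairs.

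The increase of G6pdx did not rest on knockout library 1. The other 3 knockout libraries averaged 18.4 ± 1.01 CPM. Without library 1 the log2 fold change was smaller, at 0.96, and the adjusted p was 0.0146. The call was lost in 4 of the 8 leave-one-out fits, where the adjusted p was 0.0597 (control replicate 1 left out), 0.0739 (control replicate 2), 0.0601 (control replicate 4) and 0.0586 (knockout replicate 3). The log2 fold change in these fits ran from 0.96 to 1.42. In other settings the adjusted p ran from 6.31e-06 (DESeq2) to 0.041 (limma-voom with quality weights).

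The gene Ikbkg, which encodes the NEMO subunit of the IκB kinase, lies across G6pdx on the opposite strand and shares 418 exon bases with it, 13.6% of the exon bases annotated for G6pdx. Reads in the shared stretch cannot be assigned to 1 of the 2 genes when the strand setting is not known. Ikbkg had 142 ± 8.72 CPM in control and 158 ± 15.4 CPM in knockout libraries (log2 fold change 0.15, adjusted p = 0.326). By library Ikbkg had 129, 146, 148 and 146 CPM in controls 1 to 4, and 164, 177, 150 and 143 CPM in knockouts 1 to 4. The part of Ikbkg reads in the G6pdx counts was not tested. The intronless copy G6pd2 had 0 to 6 counts per library.

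Sums of leukocyte and cholangiocyte markers also varied between the libraries. The 9 neutrophil markers summed to 1.60 to 9.41 CPM in controls, while knockout libraries 1 to 4 had 75.2, 1.83, 1.35 and 33.2 CPM. The 12 Kupffer cell and macrophage markers summed to 205 to 286 CPM in controls, while knockout libraries 1 to 4 had 360.1, 170.2, 214 and 453 CPM. Of these markers, 6 neutrophil and 12 macrophage genes were tested and 0 passed edgeR's test (0 at an unadjusted p under 0.05, and 0 by DESeq2). No marker of either list was at 0 in every library. The 7 cholangiocyte markers summed to 42.6 to 57.4 CPM in controls and 30.6 to 45.4 CPM in knockouts, and Sox9 was the 1 marker called in any list, as lower (−1.18, adjusted p = 0.0242, and up to 0.0745 in leave-one-out fits, 5 of which ended the call: without control replicates 1 and 2 and knockout replicates 2, 3 and 4). Most of the cholangiocyte sum was Spp1 (34.8 ± 7.40 CPM in control and 29.6 ± 7.70 CPM in knockout libraries) and Sox9 (11.7 ± 1.68 and 5.17 ± 1.98 CPM). Of the 7 markers, 3 had a log2 fold change above 0 (Krt7 0.20, Krt19 0.10 and Cftr 0.41). G6pdx was 37.9, 17.4, 19.3 and 18.6 CPM in knockout libraries 1 to 4, and its highest control value was 11.1 CPM. The part of any of these cells in these levels, or in the difference between the groups, was not tested. In RNA of whole tissue a change in cell number and in RNA per cell cannot be told apart.

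**Figure D2:**
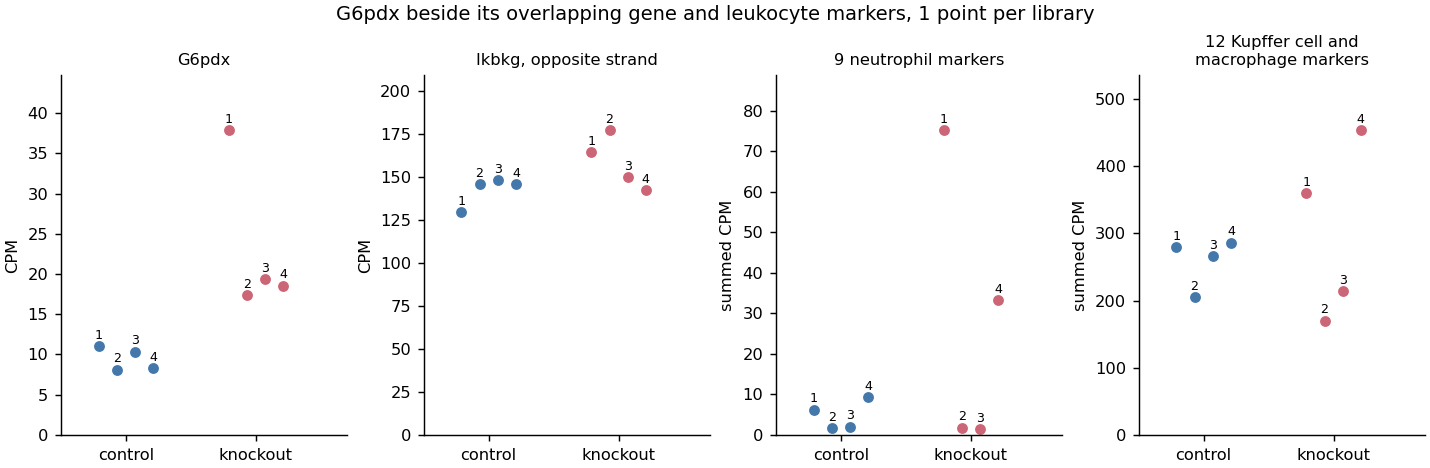
G6pdx, its overlapping gene Ikbkg, and the summed CPM of the neutrophil and the Kupffer cell and macrophage markers, 1 numbered point per library, with vertical axes starting at 0. Knockout library 1 is highest for G6pdx (37.9 CPM) and for the neutrophil sum (75.2 CPM). Knockout libraries 2 to 4 have neutrophil sums of 1.83, 1.35 and 33.2 CPM and G6pdx levels of 17.4, 19.3 and 18.6 CPM. The part of these cells in G6pdx was not tested.

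Short stretches of G6pdx are printed because they hold the letters searched for as motifs of NRF2, a known activator of this pathway, and of AU-rich elements. The first is from the promoter window of RefSeq (GRCm38.p6, 250 bases before to 50 after the start), in which TGACNNNGC, the core of the antioxidant response element that NRF2 binds, was searched on both strands. The match is on the reverse strand and begins at position −57 from the start, at chrX:74428929-74428937, and capitals mark it. The second is from the 3′ untranslated region (724 bases, GENCODE M21), in which capitals mark the only AUUUA, the pentamer of AU-rich elements, at chrX:74409973-74409977. Both are written 5′ to 3′ along the gene.
G6pdx promoter: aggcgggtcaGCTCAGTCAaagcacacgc
G6pdx 3′ untranslated region: aaataccaggcATTTAaaactcattgt

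TGACNNNGC was found in 12.4% of all 32851 promoter windows and in the windows of 2 of the 9 members, G6pdx and Pgd. The sterol regulatory element TCACNCCAC (1.24% of all windows) and the E-box CACGTG (7.15%) had no match in the 11 windows of the members on either strand. The longer element UAUUUAU, which the ZFP36 proteins bind, was in the longest annotated 3′ untranslated region of 29.7% of 13696 tested genes and in that of 0 of the 9 members. Among 1409 tested genes with a region of a length within 1.2-fold of that of G6pdx, 19.4% held UAUUUAU and 61.7% held AUUUA. The regions of other members also held this pentamer, with 5 matches in Rpe, 2 in Tkt and 1 each in H6pd and Rpia. None of these members passed edgeR's test. Pgls, Pgd, Taldo1 and Idh1 had 0 matches, so the pentamer does not set G6pdx apart. A match or its lack is a description of letters and not of binding.

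H6pd (chromosome 4, 149979475 to 150009023, minus strand) encodes the hexose-6-phosphate dehydrogenase of the endoplasmic reticulum, which makes NADPH there for the steroid reductase HSD11B1. Control libraries had 731, 828, 860 and 851 CPM and knockout libraries 942, 694, 747 and 894 CPM. The groups overlapped, the log2 fold change came to 0.0026 (SE 0.11, adjusted p = 0.992), and the interval of 2 SE ran from −0.22 to 0.22. Its value turned to −0.0059 with the replicate block. Hsd11b1 itself had 360.1 ± 34.5 and 435 ± 29.9 CPM (log2 fold change 0.27, adjusted p = 0.108).

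Per kilobase of deposited gene length, H6pd was far above G6pdx in every library. G6pdx made up 3.11%, 2.03%, 2.49% and 2.02% of the summed per-length level of the pair in controls 1 to 4, against 7.84%, 5.03%, 5.20% and 4.22% in knockouts 1 to 4. These shares did not overlap between the groups, at 2.41 ± 0.512% and 5.57 ± 1.57% (n = 4 each). They restate the rise of G6pdx, which was known when the pair was chosen, and are a description.

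Pgls (chromosome 8, 71592176 to 71601092) encodes 6-phosphogluconolactonase, which opens the lactone between the dehydrogenase steps. It had 13.8 to 19.0 CPM in control and 12.7 to 16.2 CPM in knockout libraries, and the groups overlapped (log2 fold change −0.17, SE 0.11, adjusted p = 0.433, interval of 2 SE −0.40 to 0.06). It shares 776 exon bases with Fam129c on the same strand, which had 0.589 CPM on average in control libraries.

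Pgd (ENSMUSG00000028961.15, chromosome 4, 149149991 to 149166771, minus strand) encodes 6-phosphogluconate dehydrogenase, the NADPH-producing step after the lactonase. It had 62.0, 46.3, 48.7 and 70.5 CPM in the numbered controls 1 to 4, against 88.9, 86.9, 73.5 and 73.7 CPM in the numbered knockouts. The lowest knockout library was just above the highest control library, so the groups did not overlap, as for 15.1% of all tested genes (7.17% with the knockout higher). The means were 56.9 ± 11.4 and 80.7 ± 8.31 CPM (log2 fold change 0.51, SE 0.14). The adjusted p of 0.0678 missed the threshold (0.0518 with the replicate block), while DESeq2 gave an adjusted p of 0.0095 and edgeR gave 0.0313 without control replicate 4, the control library with the highest Pgd. The other leave-one-out fits gave adjusted p-values up to 0.168.

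The promoter match of Pgd begins at position 4 of the downstream of its 2 RefSeq starts, at chr4:149166071-149166079, and is printed beside that of G6pdx because Pgd and G6pdx are the 2 members whose windows hold TGACNNNGC. Here the match is on the forward strand.
Pgd promoter: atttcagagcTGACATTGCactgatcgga

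**Figure D3:**
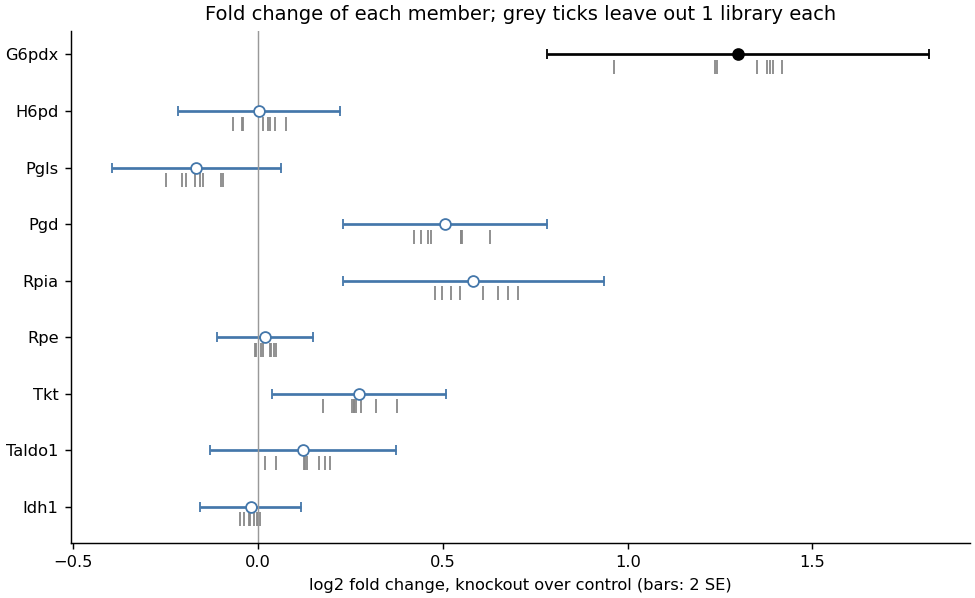
Log2 fold change of knockout over control (horizontal axis) for each member, with bars of 2 SE. The filled point passed adjusted p under 0.05 (G6pdx, 1.30), and grey ticks are the values after leaving out 1 library each, which for G6pdx run from 0.96 to 1.42.

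In the non-oxidative branch no member passed edgeR's test. Rpia (chromosome 6, 70765720 to 70792232, minus strand) encodes ribose-5-phosphate isomerase, which makes the precursor of nucleotides. It had 5.12, 3.90, 3.50 and 5.60 CPM in the numbered controls 1 to 4, against 7.98, 6.41, 7.27 and 5.45 CPM in the numbered knockouts. Knockout library 4 fell within the control range and the other knockout libraries were above it. Its log2 fold change came to 0.58 (SE 0.18, adjusted p = 0.0894), and DESeq2 gave an adjusted p of 0.017. Leave-one-out fits gave adjusted p-values from 0.0601 to 0.216.

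Tkt (chromosome 14, 30548359 to 30574720) encodes transketolase, which moves 2-carbon units between sugar phosphates. Control libraries 1 to 4 had 168, 166, 170.0 and 189 CPM and knockout libraries 1 to 4 had 216, 251, 207 and 163 CPM. Knockout library 4 was the lowest of all 8 libraries and the other knockout libraries were above every control. Its log2 fold change came to 0.27 (SE 0.12, adjusted p = 0.216), with an interval of 2 SE from 0.04 to 0.51. Without knockout replicate 4 it was 0.38 (adjusted p = 0.0525).

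Taldo1 (chromosome 7, 141392199 to 141402968) encodes transaldolase, the other transfer enzyme of the branch. It had 73.6 to 109 CPM in control and 91.2 to 119 CPM in knockout libraries (log2 fold change 0.12, SE 0.13, adjusted p = 0.617). Rpe (chromosome 1, 66700831 to 66719805), the epimerase that makes xylulose 5-phosphate, had 31.2 to 35.1 CPM in control and 32.1 to 35.4 CPM in knockout libraries. Its log2 fold change was 0.02 (SE 0.07, adjusted p = 0.897, interval of 2 SE −0.11 to 0.15). Rpe shares 558 exon bases with Kansl1l on the opposite strand. The ranges of both genes overlapped over most of their length.

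Same-numbered pairs of libraries moved unequally. In pair 4 the log2 difference of knockout and control was 1.16 for G6pdx and 0.06 for Pgd, and it was −0.04 for Rpia, −0.21 for Tkt and −0.26 for Taldo1. In pair 2 these genes had 1.09, 0.91, 0.72, 0.60 and 0.33, and in pair 3 they had 0.90, 0.59, 1.05, 0.29 and 0.46. In pair 1 they had 1.77, 0.52, 0.64, 0.36 and −0.003. G6pdx and Pgd were higher in the knockout in all 4 pairs, which follows from their groups not overlapping. Rpia and Tkt were higher in 3 pairs and Taldo1 in 2.

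Idh1 (chromosome 1, 65158616 to 65186500, minus strand) encodes the cytosolic and peroxisomal isocitrate dehydrogenase that yields NADPH outside the pathway. Control libraries had 594, 533, 565 and 599 CPM and knockout libraries 590.3, 569, 555 and 546 CPM. All knockout libraries lay within the control range. Its log2 fold change came to −0.02 (SE 0.07, adjusted p = 0.892), with an interval of 2 SE from −0.16 to 0.12, which corresponds to 0.897 to 1.08 times the control level.

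G6pdx was set against each other member within libraries, where the ratio of counts does not depend on scaling. G6pdx was singled out with its rise known and the 8 ratios share its counts, so they are a description and no p-value is drawn from them. G6pdx gained on H6pd by a log2 value of 1.24, on Pgls by 1.40, on Rpe by 1.21, on Tkt by 0.97, on Taldo1 by 1.10 and on Idh1 by 1.25. For these 6 ratios the groups did not overlap. The gain was 0.71 on Pgd and 0.64 on Rpia, where they did. G6pdx itself did not overlap between the groups, so any gene that hardly changes can give a ratio without overlap. The share of all tested genes with such a ratio to G6pdx was not computed. Without knockout replicate 1 the 8 gains were smaller, from 0.46 for Rpia to 1.15 for Pgls.

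Levels of the members spanned a wide range per kilobase of deposited length, which allows genes to be compared. In control libraries the order was Idh1 at 235 ± 12.5 CPM per kilobase, H6pd at 165 ± 11.95, Taldo1 at 74.7 ± 12.2, Tkt at 53.7 ± 3.36, Pgd at 25.0 ± 5.003, Pgls at 14.4 ± 1.88, Rpe at 12.2 ± 0.613, G6pdx at 4.05 ± 0.635 and Rpia at 2.56 ± 0.557. Within single control libraries each gene was above the next in all 4, except Pgls over Rpe, which held in 3 of 4, so these neighbours did not differ beyond their spread. In the knockout libraries the order of means was the same. There G6pdx rose to 9.96 ± 4.17 CPM per kilobase and was above Rpe in 1 of 4 libraries, number 1. With exon lengths from the annotation in place of the deposited ones, Rpe moved from rank 7 to rank 5, above Pgd and Pgls.

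**Figure D4:**
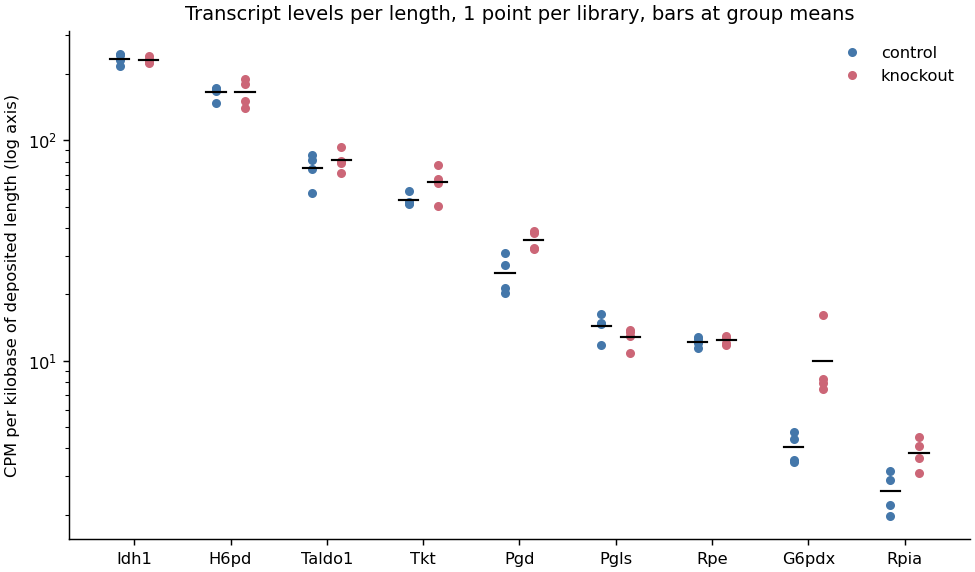
CPM per kilobase of deposited gene length (vertical log axis) for the 9 members in descending order of the control mean, 1 point per library and a bar at each group mean. G6pdx lies second from the bottom in control livers, at 4.05, and moves up to 9.96 in knockout livers.

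The genes whose profile over the 8 libraries was most like that of G6pdx were sought by the root mean square difference of log2 CPM relative to each gene's own control mean. With symbols of predicted genes, clones and pseudogenes left out, the 5 nearest were Spon2 (0.227), Cyfip2 (0.276), St3gal6 (0.288), Scd4 (0.293) and Elovl2 (0.294). Spon2, which encodes a secreted matrix protein, had 28.8, 22.2, 26.6 and 16.2 CPM in control and 77.8, 54.7, 55.4 and 41.4 CPM in knockout libraries, with library 1 highest as for G6pdx. Elovl2, a fatty acid elongase gene, had 783 ± 122 and 1574 ± 174 CPM. These genes were picked for their likeness, so their own differences are a description. Among the members Rpia (0.569) and Pgd (0.617) came nearest to G6pdx, at places 298 and 453 of all tested genes, and Me1 (0.347) was at place 17. These places count genes of every symbol.

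Of 15 other listed genes of enzymes that make or use pentose phosphates 11 were tested. Against 5.39% called over all tested genes, edgeR called 0 higher and 0 lower (0 higher and 2 lower at an unadjusted p under 0.05 and by DESeq2), with a median log2 fold change of −0.12. The lowest adjusted p-values belonged to the ribose-phosphate pyrophosphokinase genes, which carry ribose 5-phosphate into nucleotide synthesis. Prps1l3 had 35.7 ± 2.65 and 30.1 ± 1.34 CPM (adjusted p = 0.0785), Prps2 had 15.3 ± 0.950 and 12.7 ± 0.882 CPM (adjusted p = 0.0827) and Prps1 had 25.0 ± 1.32 and 22.9 ± 1.05 CPM (adjusted p = 0.307). Under total counts alone these 3 genes passed as lower. The transketolase-like genes Tktl1 and Tktl2 are listed at 0 in all 8 libraries.

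Of 25 tested genes whose products share hexose and triose phosphates with the pathway, 5 rose and 0 fell (1 lower at an unadjusted p under 0.05, and 0 lower by DESeq2), with a median of 0.37, where 3.51% of all tested genes rose. The number that rose was 1 without knockout replicate 1 or 3 and 2 without control replicate 1 or knockout replicate 2, and the list was not tested against other genes. Gpi1, which interconverts glucose 6-phosphate and fructose 6-phosphate, had 212 ± 16.5 CPM in control and 332 ± 39.3 CPM in knockout livers, a rise of 0.65 on the log2 scale (SE 0.10, adjusted p = 0.00908), and passed in all 8 leave-one-out fits. The hexokinase gene Hk2 rose from 1.55 ± 0.718 to 5.72 ± 0.144 CPM (1.88, adjusted p = 0.0225). Pfkm, a phosphofructokinase subunit gene, rose by 0.42 (adjusted p = 0.0273), and so did Tigar (0.42, adjusted p = 0.0294), whose product lowers fructose 2,6-bisphosphate and so favours entry into the pentose phosphate pathway. With 1 library left out the call was lost for Hk2 in 4 cases (control replicate 1 and knockout replicates 1, 2 and 3), Tigar in 5 (control replicate 1 and all knockout replicates) and Pfkm in 6 (all but control replicate 3 and knockout replicate 4), with adjusted p-values up to 0.0839. Scaling by total counts gave Pfkm 0.0628 and Tigar 0.0546 as adjusted p, past the threshold for neither.

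Among other genes of NADPH supply, 3 of 17 tested rose and 0 fell (1 lower at an unadjusted p under 0.05, 0 lower by DESeq2), with a median of 0.07. Over all tested genes, 3.51% rose and 1.88% fell. The list also holds genes whose enzymes do not themselves reduce NADP, Acly and Nadk among them. Its count is therefore not a count of NADPH-making enzymes. Me1, the cytosolic malic enzyme gene, had 638, 435, 617 and 673 CPM in control and 1519, 1586, 1348 and 1050 CPM in knockout libraries 1 to 4 (log2 fold change 1.22, adjusted p = 0.00645). The groups did not overlap, and the highest library was number 2, where G6pdx was lowest among the knockouts. Acly, the ATP citrate lyase gene, rose by 1.00 (SE 0.21, adjusted p = 0.0296) and Nadk, the cytosolic NAD kinase gene, by 0.36 (SE 0.09, adjusted p = 0.0443). The call of Acly was lost in 6 leave-one-out fits (all but control replicate 4 and knockout replicate 4) and of Nadk in 7 (all but knockout replicate 4), with adjusted p-values up to 0.126, and Nadk had 0.0964 under total counts alone. Per kilobase of deposited length, Me1 had 165 ± 29.8 CPM in control livers, below Idh1 (235 ± 12.5), and 385 ± 66.9 CPM in knockout livers, above Idh1 (232 ± 7.94). The Me1 level was not recomputed with exon lengths from the annotation, so its order against Idh1 holds for the deposited lengths only.

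Of 25 tested genes of enzymes that use NADPH, 3 rose and 1 fell, with a median of 0.22, where 3.51% of all tested genes rose and 1.88% fell. Those that rose were Fasn, fatty acid synthase (1.498, adjusted p = 0.0307, or 0.0635 with the replicate block), Txnrd1, the cytosolic thioredoxin reductase (0.32, adjusted p = 0.0403), and Hsd17b12, a ketoacyl reductase of fatty acid elongation (0.33, adjusted p = 0.0403). Nox4, an NADPH oxidase gene, fell from 62.0 ± 9.57 to 38.8 ± 6.59 CPM (−0.68, adjusted p = 0.0288). Leaving out 1 library ended these calls in 5 of 8 fits for Nox4 (control replicates 1 and 2 and knockout replicates 1, 2 and 3), 6 for Fasn (all but control replicates 3 and 4) and 7 for Txnrd1 (all but control replicate 4) and for Hsd17b12 (all but knockout replicate 4), with adjusted p-values up to 0.115. Scaling by total counts ended the calls of Txnrd1 (adjusted p = 0.0958) and Hsd17b12 (adjusted p = 0.0915).

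The glucuronate and xylulose route joins the pathway at xylulose 5-phosphate, and 1 of its 10 tested genes rose and 0 fell (1 lower at an unadjusted p under 0.05 and by DESeq2), with a median of −0.04. The shares over all tested genes were 3.51% higher and 1.88% lower, so a single call does not set this list apart. Ugp2, which makes UDP-glucose, rose from 319 ± 28.3 to 427 ± 37.5 CPM (0.42, adjusted p = 0.0299), but had 0.069 under total counts alone and lost its call in 6 of 8 leave-one-out fits (all but control replicate 3 and knockout replicate 1; adjusted p-values up to 0.0861). Dcxr, the xylulose reductase gene, had 49.7 ± 7.28 and 37.9 ± 1.66 CPM (−0.39, adjusted p = 0.0563). Khk, the ketohexokinase gene, had 357 ± 56.7 and 474 ± 54.1 CPM (0.41, adjusted p = 0.0966).

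Of 20 tested regulators known for genes of this pathway, 3 rose and 1 fell, with a median of 0.05, where 3.51% of all tested genes rose and 1.88% fell. None of the lists was tested against other genes. Mlx, the dimer partner of the carbohydrate response factor ChREBP, rose from 27.2 ± 3.39 to 39.9 ± 0.664 CPM (0.55, adjusted p = 0.0124) and passed in all 8 leave-one-out fits. Pparg rose by 0.88 (adjusted p = 0.0178, and 0.0592 without control replicate 1), and Tigar is also in this list. Trp53, whose product p53 binds and inhibits glucose-6-phosphate dehydrogenase, fell (−0.30, adjusted p = 0.049), with 0.0679 under the replicate block, 0.0511 with RLE scaling, 0.0624 with no count filter and the call lost in 7 of 8 leave-one-out fits (all but control replicate 3). Nfe2l2, the NRF2 gene, had 77.2 ± 8.41 and 82.8 ± 13.7 CPM (adjusted p = 0.678), and Srebf1 had 539 ± 104 and 460 ± 49.9 CPM (adjusted p = 0.377).

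**Figure D5:**
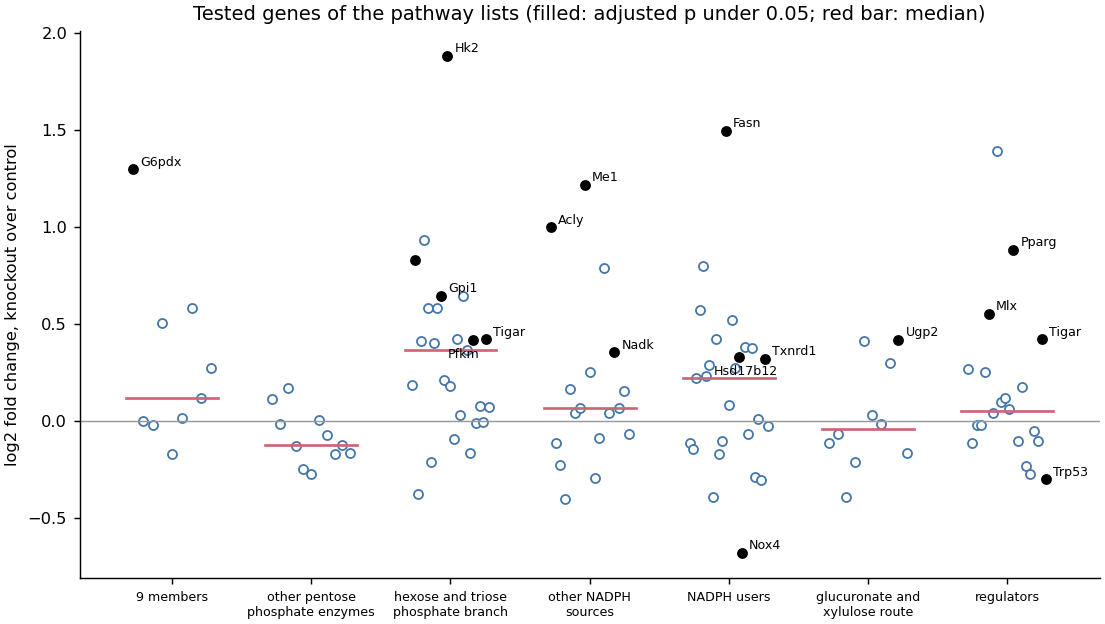
Log2 fold change of knockout over control (vertical axis) for every tested gene of the 9 members and of the 6 lists around them, filled where adjusted p was under 0.05 and labelled where the gene is described in the text, with a red bar at each list's median. Among the members G6pdx alone is filled, while the hexose and triose phosphate list has 5 filled points above 0.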

How the data were processed

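RNA-seq libraries of 4 control and 4 knockout livers were grouped by their titles. The deposited values are raw read counts, 1 table by gene symbol that also gives a gene length in bases, and per the submitters' processing notes the build was mm10. For the aligner, counter, annotation and strand setting, the entry is: not given in the sources used here. Library preparation was with a NEBNext Ultra II RNA kit, per the labels' protocols. In each library 67.4% to 70.8% of counts from 1 to 20 were even, so halved counts were among the alternatives.

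Counts were filtered with filterByExpr (14861 genes kept, 10378 left out), scaled with TMM and tested in edgeR 4.0.16 with robust quasi-likelihood fits (6 residual degrees of freedom), after a check on simulated counts. SE is the absolute log2 fold change over the square root of F. Alternatives used DESeq2 1.42.0, limma 3.58.1, other scalings and filters, the replicate number as a block, and each library left out. Same-numbered libraries deviated together from their group means (correlations of 0.17, 0.39, 0.31 and 0.40 over genes), and each was the other's best match. The labels do not state a pairing, and whether the numbers mark one was not tested. The main fit takes no account of the numbers, while the replicate block does. At this depth 3 counts are 0.0215 to 0.0277 CPM, for counting error only.

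Positions and 3′ untranslated regions came from GENCODE M21 (GRCm38) and promoters from RefSeq (GRCm38.p6), where all 9 members matched. The members and lists were chosen with earlier results of these data known. Named genes are the members, Zfp36l1, the 3 genes of lowest adjusted p in each list with all changed genes where 5 or fewer changed, and the 5 genes most like G6pdx; a gene that this rule names is not reported here. Hsd11b1, Nfe2l2, Srebf1, Ikbkg, Tktl1, Tktl2, G6pd2 and the promoter motifs other than TGACNNNGC, with AUUUA, were added after values were seen.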

Additional observations from a re-analysis of the deposited data

Results flagged for a closer look

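The G6pdx level of knockout library 1 stood apart from its group. It was 37.9 CPM, and the nearest other knockout library had 19.3 CPM, a gap of 0.903 of the group's whole range, above the 95% critical value of Dixon's test for 4 samples. The check was run on 36 groups of 4 values (the 9 members, Zfp36l1 and 8 marker sums in each genotype), where chance alone flags about 1 in 20. Knockout library 1 had been singled out for G6pdx before the check, so the flag is a description and not a test result. The same library had the highest neutrophil marker sum, 75.2 CPM, and the part of those cells in its G6pdx level was not tested.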

How the results depend on the processing

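Of the results on members, Zfp36l1 kept its direction and call in every setting run, and G6pdx kept its direction in every setting and its call in all but 4 leave-one-out fits. Leaving out 1 library at a time gave 211 to 967 changed genes in place of 801 (1.41% to 6.47% of the genes tested), 0 to 1 members called higher, and log2 fold changes of 0.96 to 1.42 for G6pdx, 0.42 to 0.63 for Pgd, −0.069 to 0.074 for H6pd, −0.0091 to 0.048 for Rpe and −0.049 to 0.0050 for Idh1. Over the same fits the lists had 1 to 5 higher for hexose and triose phosphates, 1 to 3 for NADPH supply, 0 to 4 higher and 0 to 2 lower for NADPH users, 0 to 1 higher and 0 to 1 lower for the glucuronate route, and 1 to 3 higher and 0 to 1 lower for regulators. Without control replicate 4 the 1 member called was Pgd and not G6pdx.

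The number of changed genes was 1730 under total counts alone, 1738 with DESeq2 and 1434 with limma-voom. DESeq2 called 3 members higher, with Pgd at 0.51 (adjusted p = 0.0095) and Rpia at 0.59 (adjusted p = 0.017). H6pd turned to −0.11 and Rpe to −0.095 under total counts alone, and H6pd to −0.0059 with the replicate block. With the replicate block 1028 genes changed and G6pdx had 1.23 (adjusted p = 0.00506). Among the members it changed no call, and among the genes named from the pathway lists it ended those of Fasn and Trp53. Its calls for the 5 genes most like G6pdx were not examined. For the G6pdx ratios, the planned exact permutation test gave p = 0.0286 for 6 of the 8, while sign swaps within the 4 pairs, which cannot give a p under 0.125, gave 0.125 for 7 ratios and 0.25 for Rpia. Neither is used, since the choice of G6pdx followed its rise.

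List counts moved as follows, and so did the counts over all 14861 tested genes. Those were 392 higher and 1338 lower under total counts alone (11.6% called in all). With DESeq2 they were 1014 higher and 724 lower (11.7%), and with limma-voom 830 higher and 604 lower (9.65%). The main fit had 521 higher and 280 lower (5.39%). Under total counts alone, hexose and triose phosphates had 3 higher, NADPH users 1 higher and 3 lower, the glucuronate route 0 higher and 1 lower, other pentose phosphate enzymes 3 lower and regulators 2 lower. With DESeq2 these were 8 higher, 6 higher and 3 lower, 2 higher and 1 lower, 2 lower and 2 lower. With limma-voom NADPH users had 5 higher and 3 lower and the glucuronate route 1 lower. Regulators had 0 lower with RLE scaling, with no count filter and with the replicate block. These settings called 5.42%, 3.71% and 6.92% of the genes they tested, in that order. The cause of these moves was not tested.

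With annotated exon lengths, control levels per kilobase were 3.07 for G6pdx, 4.46 for Pgls, 8.82 for Pgd, 0.845 for Rpia, 10.7 for Rpe, 23.6 for Tkt, 43.9 for Taldo1 and 207 for Idh1.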
